A study of Sus scrofa with 30 samples.

Results

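ACTG2, MYL9, COL3A1 and DCN are genes of contractile cells and of fibrous connective tissue, and 30 porcine Affymetrix arrays, hybridised with RNA from the cerebral cortex of pigs, measured them. They are 4 of 6765 genes with a symbol of their own on the array. All probe sets whose single gene symbol in the platform's probe annotation is one of these 4 were taken, which gave 6 probe sets of 23999 analysed: 2 for ACTG2 (Ssc.6145.1.A1_at and Ssc.10316.1.S1_at), 1 for MYL9 (Ssc.9125.1.S1_at), 1 for COL3A1 (Ssc.10754.2.A1_at) and 2 for DCN (Ssc.10245.2.A1_a_at and Ssc.19012.1.A1_at). The probe sets were taken by symbol alone, but the 4 genes were chosen with earlier results of these data known. A probe set is a group of short probes on the array that read the same transcript together.

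Smooth muscle cells wrap the arteries and arterioles of the brain and its coverings, and contract when myosin pulls on actin filaments. ACTG2 encodes gamma-2 actin of smooth muscle, known best from visceral muscle, and MYL9 encodes a regulatory light chain of myosin, whose phosphorylation starts contraction. Fibroblasts of the meninges and of the outer vessel wall make fibrous matrix, of which COL3A1 (type III collagen) and DCN (decorin, a small proteoglycan that binds collagen fibrils) are parts. Cortex itself holds little of either tissue.

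All animals were prepubertal farm pigs of 12 to 14 weeks and both sexes, anesthetized with pentobarbital, whose hearts were brought to ventricular fibrillation, and each received potassium chloride before the brain was removed. In the MB groups (MB30, MB60, MB180) 12 min of arrest and 8 min of cardiopulmonary resuscitation preceded the return of spontaneous circulation (ROSC), methylene blue ran in at 7.5 mg/kg/h in saline at 55 ml/kg/h, and cortex was taken 30, 60 or 180 min after ROSC. The SAL groups (SAL30, SAL60, SAL180) had the same arrest, resuscitation, saline and times, without methylene blue, which is a dye that blocks nitric oxide synthase and guanylate cyclase. The CA groups were not resuscitated, and their cortex was taken at once after arrest (CA0) or after 5, 20 or 30 min of it (CA5, CA20, CA30), so that CA0 is an arrested group too. Infusion began 1 min after the start of resuscitation and ended 50 min after ROSC. Each group had 3 arrays, labelled as biological replicates.

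Values are the deposited intensities in arbitrary units, and tests used log2(intensity + 16). P-values of group comparisons (limma) rest on the spread between the 3 arrays within groups, pooled over all groups in the fit, with an intensity trend. P-values of correlations over all arrays came from permutations across groups, so differences between groups and spread within them both enter. Where group means were taken out, permutations ran within groups. The number of arrays limits the precision. Median intensity per array was 97.6 to 108 in the MB groups, 87.0 to 105 in the SAL groups and 88.0 to 97.7 in the CA groups. The ratio of 3' to 5' probe sets of control transcripts (log2), a sign of RNA quality that is higher in more degraded RNA, was 0.71 to 1.35 on MB arrays, 0.98 to 2.60 on SAL arrays and 1.07 to 2.71 on CA arrays. It was above 2 on 4 arrays (SAL60 replicate 2, SAL180 replicate 3, CA20 replicates 2 and 3). SAL30 replicate 1 stood farthest from the rest, with a mean correlation of 0.93 with the other arrays. For group comparisons of the 4 genes, how calls changed without these arrays is given below. The calls of other marker genes and the correlations with marker lists are not given without these arrays. Correlations between the 4 genes are not given without the 4 arrays with a ratio above 2.

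The first probe set of ACTG2 read 55.6, 43.9 and 74.1 in CA0, 56.1, 45.8 and 85.6 in CA5, 67.6, 79.4 and 75.8 in CA20 and 70.2, 76.2 and 97.2 in CA30. After ROSC it read 112, 91.7 and 86.0 in MB30, against 64.6, 46.8 and 41.2 in SAL30. It read 89.7, 59.3 and 63.2 in MB60, against 64.1, 64.4 and 58.2 in SAL60, and 150.3, 102 and 79.2 in MB180, against 53.0, 77.3 and 52.3 in SAL180. All 3 MB arrays lay above all 3 SAL arrays at 30 and at 180 min, and the groups overlapped at 60 min. The second ACTG2 probe set read 46.4, 22.3 and 49.9 in CA0, 102, 63.1 and 85.0 in CA5, 76.5, 27.4 and 43.8 in CA20 and 72.2, 44.7 and 35.9 in CA30. After ROSC it read 96.2, 164 and 139 in MB30, against 101, 70.2 and 32.7 in SAL30. It read 57.8, 68.9 and 30.9 in MB60, against 69.8, 71.1 and 64.2 in SAL60, and 65.8, 84.5 and 80.0 in MB180, against 71.9, 81.2 and 47.1 in SAL180. Here MB30 was highest and overlapped SAL30 through a single SAL30 array, while at 60 and 180 min the MB and SAL arrays were mixed. The second ACTG2 probe set thus differed from the first in its order of groups, and over the 30 arrays the pair correlated at Pearson's r = 0.32, or 0.15 after each group's mean was taken out.

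MYL9 read 85.4, 50.4 and 76.5 in CA0, 55.3, 161 and 99.8 in CA5, 114, 83.3 and 132 in CA20 and 99.4, 59.8 and 146 in CA30. After ROSC it read 293, 244 and 91.8 in MB30, against 167, 126 and 96.1 in SAL30. It read 97.0, 169 and 207 in MB60, against 125, 130.4 and 54.1 in SAL60, and 163, 192 and 236 in MB180, against 125, 62.4 and 122 in SAL180. The MB30 arrays were split, with MB30 replicates 1 and 2 the highest of all 30 and replicate 3 below every SAL30 array. Only at 180 min did the MB and SAL arrays of MYL9 not overlap. CA0 was the lowest group, and CA0 replicate 2 the lowest array.

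COL3A1 read 102, 102 and 282 in CA0, 166, 180.4 and 213 in CA5, 145, 109 and 159 in CA20 and 207, 282 and 174 in CA30. After ROSC it read 237, 362 and 434 in MB30, against 78.2, 133 and 189 in SAL30. It read 187, 214 and 370.2 in MB60, against 353, 99.9 and 182 in SAL60, and 231, 379 and 377 in MB180, against 121, 209.8 and 160.1 in SAL180. MB and SAL arrays of COL3A1 did not overlap at 30 or 180 min. At 60 min a single SAL60 array, replicate 1, lay above 2 of the 3 MB60 arrays. CA0 was also split for COL3A1, with replicate 3 well above replicates 1 and 2.

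The main DCN probe set read 230.3, 88.2 and 99.7 in CA0, 206, 114 and 191 in CA5, 189, 282 and 106 in CA20 and 158, 163 and 273 in CA30. After ROSC it read 252, 262 and 246 in MB30, against 164, 118 and 141 in SAL30. It read 328, 276 and 159 in MB60, against 302, 188 and 164 in SAL60, and 283, 159.9 and 267 in MB180, against 230.0, 119 and 94.7 in SAL180. The MB30 arrays of DCN were close together and above all SAL30 arrays, and at 60 and 180 min the MB and SAL arrays overlapped. CA0 replicate 1 stood above replicates 2 and 3, whereas replicate 3 was the highest for COL3A1. The second DCN probe set read 0.196 to 10.1 on all arrays and lay under the filter on low values (an intensity of about 29.5), so it was not tested. Its values were 8.08, 7.30 and 10.1 in MB60, against 3.17, 0.484 and 2.08 in SAL60, the only time at which these did not overlap, and it correlated with the main DCN probe set at r = 0.18.

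**Figure D1:**
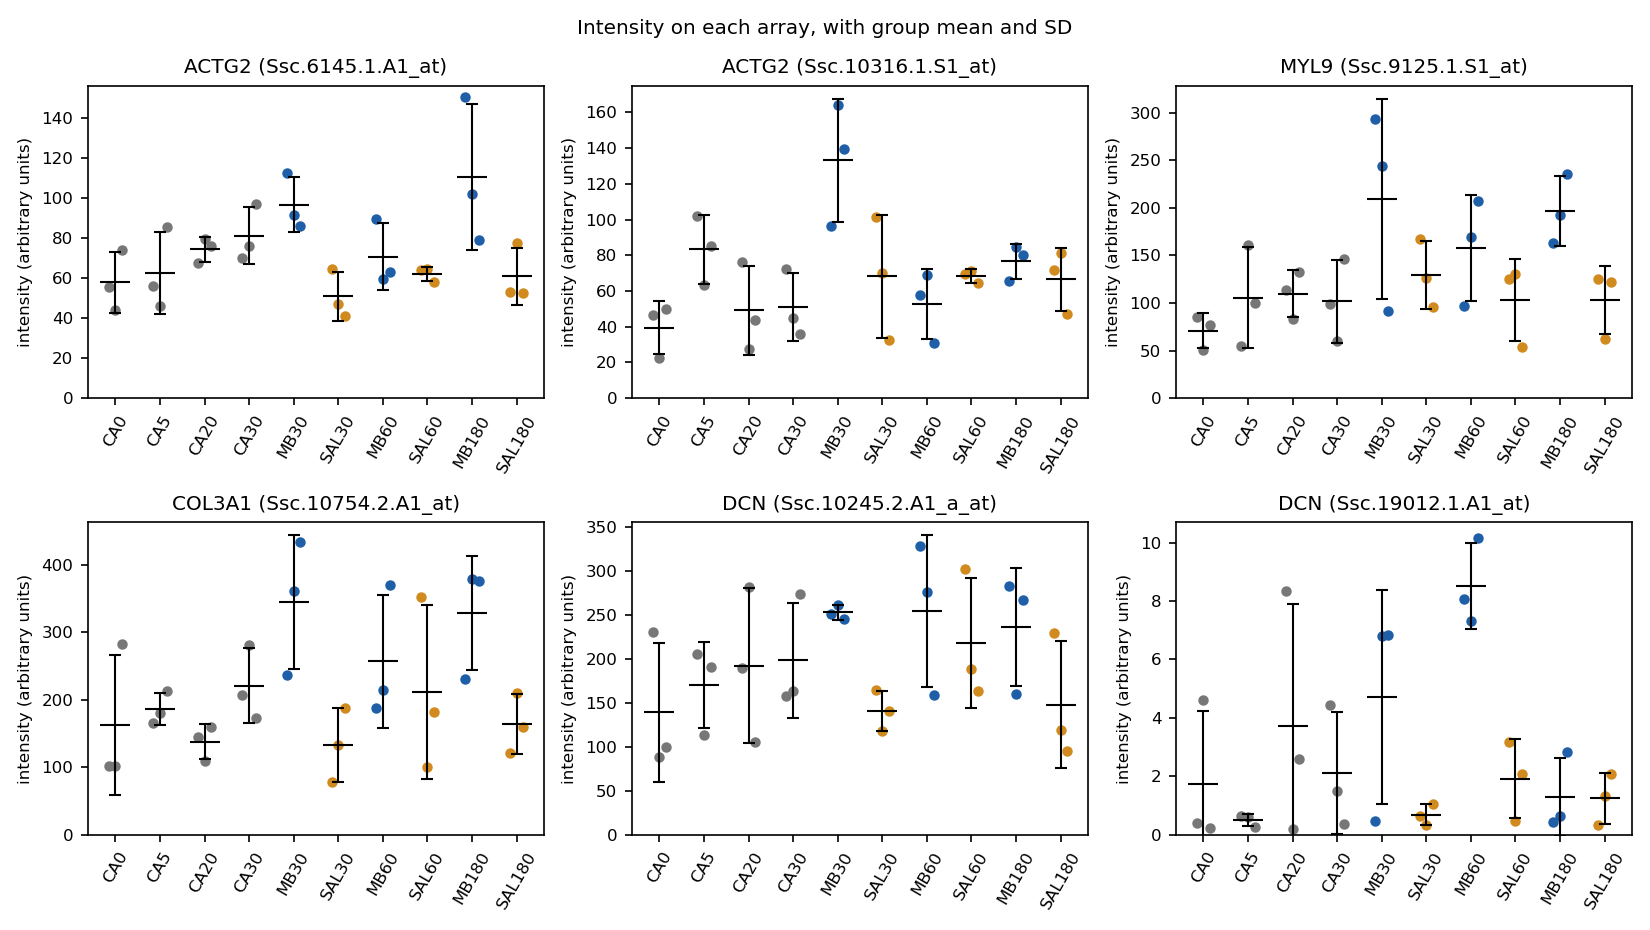
Intensity (y axis, arbitrary units, from 0) of each of the 6 probe sets on each array, by group (x axis). Points are single arrays (blue MB, orange SAL, grey CA), and bars are the group mean and SD over 3 arrays, cut at 0 where they would pass below it. An MB group has the highest mean for each of the 5 probe sets above the filter, which was not counted over all probe sets. The second DCN probe set stays at or below 10.1.

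By mean intensity, an MB group came highest for each of the 5 probe sets above the filter, and CA0 or SAL30 lowest. The share of all probe sets with an MB group highest was not counted. The median intensity of the array was also highest in the MB groups, with a mean of 103.6 against 96.1 in SAL and 92.9 in CA. The range ran from 110.5 in MB180 to 50.9 in SAL30 for the first ACTG2 probe set, and from 133 in MB30 to 39.6 in CA0 for the second. It ran from 209.6 in MB30 to 70.8 in CA0 for MYL9, from 344 in MB30 to 133 in SAL30 for COL3A1, and from 255 in MB60, next to 253 in MB30, to 139 in CA0 for DCN. For each of these 5, all 9 pairs of neighbours in the order of groups overlapped between arrays. Arrays of 1 group spread widely: the SD within groups on the log2 scale was 0.51 for MYL9, 0.50 for COL3A1, 0.47 for DCN and 0.40 for the second ACTG2 probe set, against a median of 0.26 over all probe sets tested. The first ACTG2 probe set had an SD of 0.26. In bulk tissue, fewer cells of a type and less RNA per cell cannot be told apart.

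The next comparison set untreated arrest against its start. None of the 5 probe sets passed in CA5, CA20 or CA30 against CA0 (limma, adjusted p under 0.05), where 0%, 0.0119% and 0.0119% of all 16799 probe sets passed. At an unadjusted p under 0.05 the counts were 1, 0 and 0 of the 5, and 317, 712 and 682 of all probe sets. The second ACTG2 probe set had the smallest p, in CA5 against CA0, where the arrays did not overlap (log2 difference 0.86 ± 0.31 SE, limma unadjusted p = 0.0107, adjusted p = 0.9999). The other differences in CA5, CA20 and CA30 ran from -0.08 for COL3A1 in CA20 to 0.54 for MYL9 in CA20. None passed in SAL30, SAL60 or SAL180 against CA0 either, where 0.196%, 0.315% and 0.875% of all probe sets passed. MYL9 differed by 0.74 ± 0.38 in SAL30 against CA0 (limma adjusted p = 0.694), DCN by 0.66 ± 0.36 in SAL60 against CA0 (limma adjusted p = 0.832), and the second ACTG2 probe set by 0.64 ± 0.31 in SAL60 against CA0 (unadjusted p = 0.0498, limma adjusted p = 0.793), the only 1 of the 15 under 0.05 before adjustment. Over all probe sets 1240, 1059 and 1466 were under it. These 6 comparisons share the CA0 arrays.

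Methylene blue was then compared with saline alone at each time. At 30 min 2 of the 5 probe sets were called higher in MB30 and 0 lower, where 2.4% of all probe sets were called higher. COL3A1 was higher by 1.30 ± 0.37 (log2, SE, limma adjusted p = 0.0479) and the first ACTG2 probe set by 0.76 ± 0.22 (adjusted p = 0.0486). Both stood just under the threshold. Of 41 and 42 alternatives, 29 ended the call of ACTG2 and 26 that of COL3A1. The count was 0 without SAL30 replicate 1 and with the 3'/5' ratio as a covariate, where COL3A1 differed by 1.01 ± 0.40 (adjusted p = 0.207) and 1.27 ± 0.40 (adjusted p = 0.0767). The second ACTG2 probe set differed by 0.89 ± 0.31 (limma adjusted p = 0.0965), DCN by 0.79 ± 0.36 (adjusted p = 0.200) and MYL9 by 0.52 ± 0.38 (adjusted p = 0.450), without passing.

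At 60 min none of the 5 was called in MB60 against SAL60, where 1.52% of all probe sets passed, and at an unadjusted p under 0.05 the counts were 0 of the 5 and 2910 of all. The differences ran from -0.34 ± 0.31 for the second ACTG2 probe set to 0.56 ± 0.38 for MYL9 (log2, SE). At 180 min none was called in MB180 against SAL180 either, where 1.9% passed, and at an unadjusted p under 0.05 the counts were 3 of the 5 and 3121 of all. All 5 differences were above 0. The first ACTG2 probe set came closest (0.70 ± 0.22, limma adjusted p = 0.0916), before COL3A1 (0.94 ± 0.37, adjusted p = 0.178) and MYL9 (0.87 ± 0.38, adjusted p = 0.222). No probe set on the array passed the test of whether the methylene blue difference varied between times (0%, with 483 at an unadjusted p under 0.05), and the second ACTG2 probe set, positive at 30 min and negative at 60 min, had an unadjusted p = 0.0325 in it (limma adjusted p = 0.9999).

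Over the 3 times together, 4 of the 5 probe sets, 1 for each gene, were called higher in the MB groups, where 13.8% of all probe sets were called higher. COL3A1 was higher by 0.87 ± 0.22 (log2, SE, 9 arrays per arm, limma adjusted p = 0.00494), a 1.83-fold change on the log2(intensity + 16) scale. The first ACTG2 probe set was higher by 0.53 ± 0.13 (limma adjusted p = 0.00379), or 1.44-fold, with 7 of 9 MB arrays above the highest SAL array. MYL9 was higher by 0.65 ± 0.22 (limma adjusted p = 0.0327), or 1.57-fold, with 6 of 9 MB arrays above every SAL array. DCN was higher by 0.55 ± 0.21 (limma adjusted p = 0.0495), or 1.47-fold, and stood at the threshold, while the second ACTG2 probe set did not pass (0.24 ± 0.18, adjusted p = 0.336). The median difference of the 5 was 0.55, against 0.02 over all probe sets tested. The arms overlapped for all 5. DCN lost its call in 28 of 42 alternatives, among them 20 of the 30 that left out a single array (for SAL30 replicate 1, 0.59 ± 0.22 and adjusted p = 0.0510), and MYL9 in 10, COL3A1 in 1 and the first ACTG2 probe set in 0 of 41.

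RNA quality moved with the arms in this comparison, as the 3'/5' ratios above show. With that ratio as a covariate the first ACTG2 probe set (0.54 ± 0.16, limma adjusted p = 0.0318) and MYL9 (0.86 ± 0.26, adjusted p = 0.0420) were still called. COL3A1 (0.82 ± 0.27, adjusted p = 0.0556) and DCN (0.35 ± 0.24, adjusted p = 0.394) were not. Without the 4 arrays with a ratio above 2, DCN alone of the 4 lost its call (0.45 ± 0.21, adjusted p = 0.147). After median centring of the arrays, which took 0.10 off the MB minus SAL difference of all probe sets, COL3A1 and the first ACTG2 probe set were called and MYL9 (adjusted p = 0.0661) and DCN (adjusted p = 0.0835) were not. Whether cell content has a part in these differences was not tested.

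All resuscitated groups were set against all groups that were not resuscitated. MYL9 alone of the 5 probe sets was called higher, by 0.52 ± 0.18 (log2, SE, 18 against 12 arrays, limma adjusted p = 0.0430), where 10.4% of all probe sets were called higher. The resuscitated side holds the MB arrays. MYL9 had a median of 128 in resuscitated animals (192 on MB arrays and 125 on SAL arrays) and 92.4 in the others. Its mean log2 value was 7.60 on MB, 6.94 on SAL and 6.75 on CA arrays. MYL9 was not tested in the SAL groups together against the CA groups. Its call was lost without the 4 arrays with a high 3'/5' ratio (0.45 ± 0.21, limma adjusted p = 0.181) and without any 1 of 20 single arrays, SAL30 replicate 1 among them (0.49 ± 0.18, adjusted p = 0.0596). The second ACTG2 probe set differed by 0.38 ± 0.14 (limma adjusted p = 0.0633), COL3A1 by 0.34 ± 0.17 (adjusted p = 0.179), DCN by 0.24 ± 0.16 (adjusted p = 0.327) and the first ACTG2 probe set by 0.08 ± 0.10 (adjusted p = 0.648), a sign that turned after quantile normalization (-0.04) and median centring (-0.01). In a test of any difference among the 10 groups, which 15.3% of all probe sets passed, the second ACTG2 probe set passed (limma adjusted p = 0.0459) and the first did not (adjusted p = 0.0518). Without the 4 arrays with a high 3'/5' ratio 0 of the 5 passed this test.

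**Figure D2:**
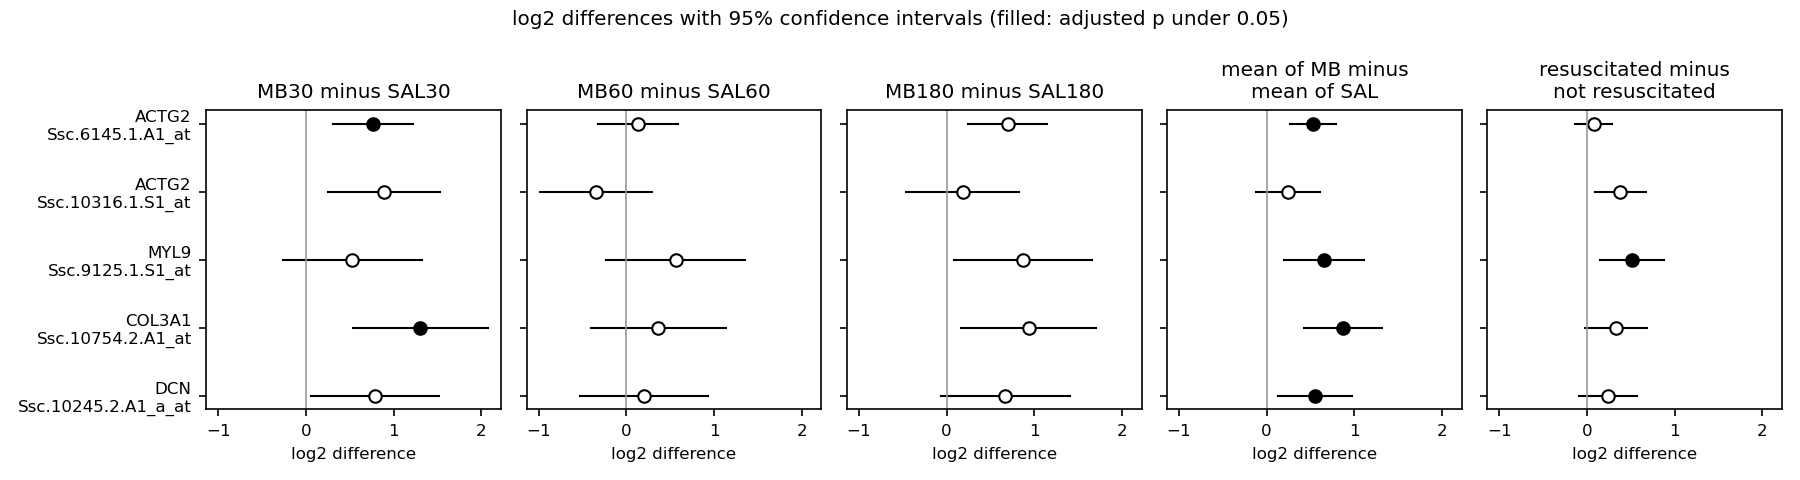
Log2 difference (x axis) of the 5 tested probe sets (rows) in the 3 MB minus SAL comparisons, in the mean over times and in resuscitated minus not resuscitated groups, with 95% confidence intervals from limma. Filled points passed at adjusted p under 0.05: COL3A1 and the first ACTG2 probe set at 30 min, 4 probe sets in the mean over times, and MYL9 in the last panel.

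The question was also whether the 4 genes rose and fell together from array to array. Over all 30 arrays, with the probe set of highest mean for each gene, r was above 0 for all 6 pairs, and 2 of 6 passed (permutation test, two-sided, 100000 resamples, adjusted over the 6 pairs). ACTG2 and DCN correlated at r = 0.51 (Spearman's rho = 0.51, unadjusted permutation p = 0.00401, adjusted p = 0.0241), and ACTG2 and COL3A1 at r = 0.44 (rho = 0.50, unadjusted permutation p = 0.0154, adjusted p = 0.0463). The other 4 pairs had r of 0.37 (ACTG2 and MYL9), 0.32 (MYL9 and DCN), 0.31 (MYL9 and COL3A1) and 0.22 (COL3A1 and DCN), with adjusted permutation p of 0.0892 to 0.244. The 2 matrix genes thus had the lowest r of the 6 pairs. Of all other probe sets tested, 96.6% had a lower r with ACTG2 than DCN had, and 93.0% a lower one than COL3A1 had. Taken from DCN and from COL3A1, 96.7% and 87.5% had a lower r than ACTG2 had. For COL3A1 and DCN the shares were 67.7% and 70.6%, and for the pairs with MYL9 they were 76.2% to 88.8%. Differences between groups enter these shares. With each group's mean taken out, they were 81.0% and 86.5% for ACTG2 and DCN, and 29.6% and 33.5% for ACTG2 and COL3A1. They were then 10.9% and 4.89% for COL3A1 and DCN, and 31.3% to 54.9% for the pairs with MYL9.

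With each group's mean taken out, r was 0.27 for ACTG2 and DCN, and -0.12 for ACTG2 and COL3A1. It was -0.03 for ACTG2 and MYL9, -0.13 for MYL9 and COL3A1 and 0.00 for MYL9 and DCN, and -0.32 for COL3A1 and DCN. None of the 6 passed (within-group permutation, smallest unadjusted p = 0.181, adjusted p = 0.678 to 0.993). Within arms, COL3A1 and DCN had r = -0.61 on the 9 MB arrays, the lowest of any pair, 0.23 on the 9 SAL arrays and -0.23 on the 12 CA arrays. In the same order ACTG2 and DCN had 0.21, 0.23 and 0.48, the last the highest of any pair, and MYL9 and COL3A1 0.14, -0.46 and 0.06. The other pairs lay between -0.30 and 0.41. The values within arms were not tested. Without the 2 arrays farthest from the median of the first gene, r was 0.45 for ACTG2 and DCN and 0.48 for ACTG2 and COL3A1, with unadjusted permutation p of 0.0174 and 0.0112 and adjusted p = 0.0522 for both (MB30 replicate 1 and MB180 replicate 1 left out). Without CA0 replicate 2 alone, 0 of 6 pairs passed. With the second ACTG2 probe set, ACTG2 had r of 0.32 with DCN and 0.33 with COL3A1, and 0 of 6 pairs passed. After quantile normalization or median centring 0 of 6 passed as well.

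**Figure D3:**
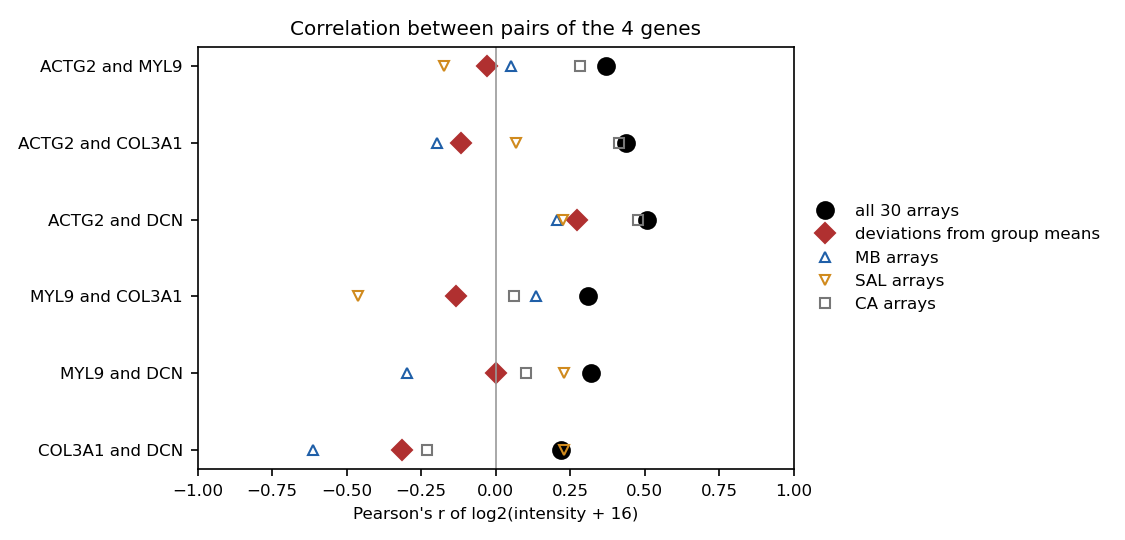
Pearson's r of log2(intensity + 16) (x axis) for each pair of the 4 genes (rows), over all 30 arrays (black), of deviations from group means (red), and within the MB, SAL and CA arrays (open symbols). All 6 black points lie above 0.2, and 4 of 6 red points lie below 0.

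MB30 replicates 1 and 2 and MB180 replicates 1 and 3 were among the 10 highest arrays for all 4 genes, and each other array was so for at most 3. Of the 13 arrays that were in the highest 10 for none of the 4 genes, 0 were MB arrays. The probe sets counted here are the 4 called higher in the MB groups over the times together, so both counts restate that group difference. The same counts were not made for other sets of probe sets. CA0 replicate 2 was among the 10 lowest for all 4 genes. Against their own group's mean, 2, 7, 12, 7 and 2 of the 30 arrays were high for 0, 1, 2, 3 and 4 genes. Those high for all 4 were CA5 replicate 3 and SAL60 replicate 1, and those high for none were CA0 replicate 2 and SAL60 replicate 3. The counts that genes without co-variation would give were not computed, so these arrays are not set apart by them.

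**Figure D4:**
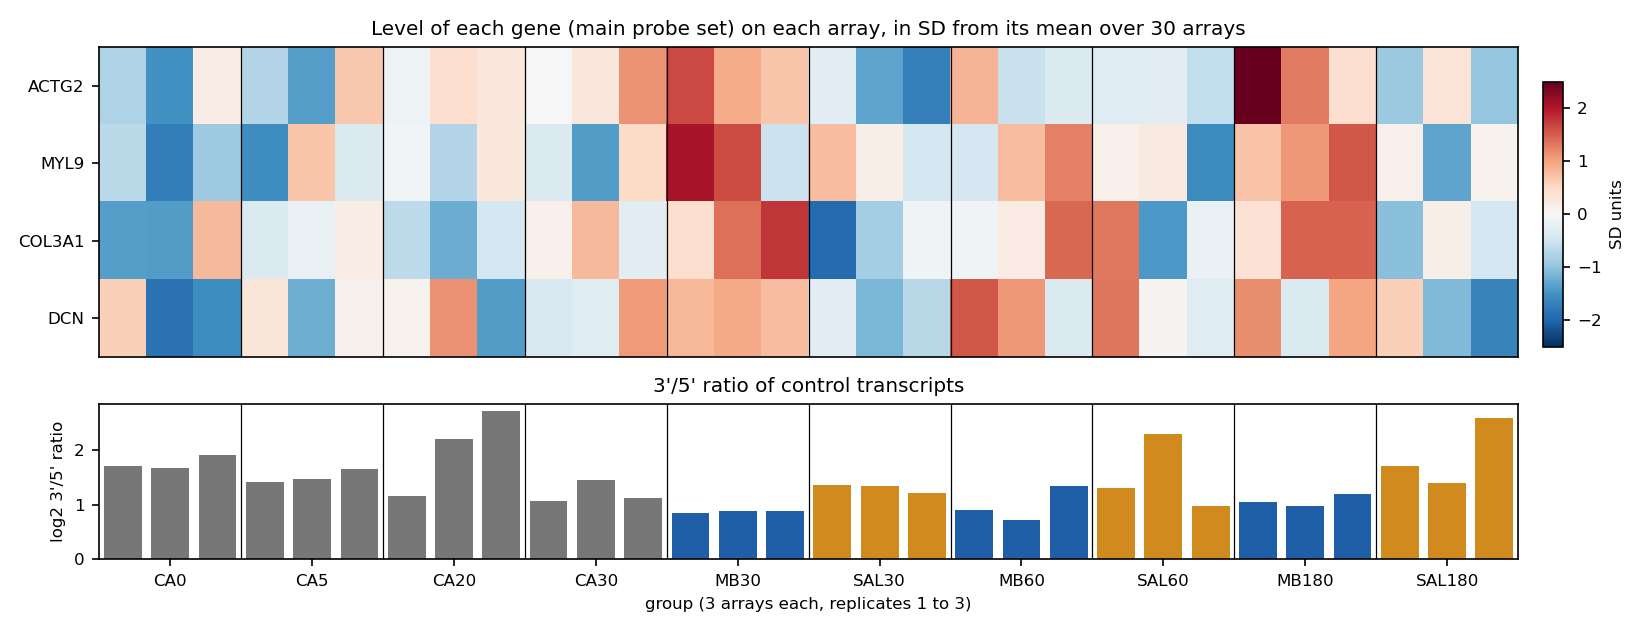
Upper panel: level of ACTG2, MYL9, COL3A1 and DCN (rows, probe set of highest mean) on each of the 30 arrays (columns, 3 per group), in SD from the gene's mean over all arrays. Lower panel: log2 3'/5' ratio of control transcripts on the same arrays. The MB30 and MB180 columns are mostly red, CA0 replicate 2 is blue throughout, and the MB bars are at 1.35 or lower.

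Each gene was then set against a list of other markers of smooth muscle and pericytes (15 genes measured) and of fibroblasts and fibrous matrix (17 genes measured), neither of which holds the 4 genes. A list's level on an array is the mean of its genes' standardised log2 values. DCN followed the fibroblast list (r = 0.78, rho = 0.73, permutation p = 1e-05, the smallest that 100000 resamples can give, adjusted p = 0.00048 over 48 pairs of gene and measure). It did so also after the group means were taken out (r = 0.81, within-group permutation p = 0.00014, adjusted p = 0.00672), and at r = 0.75 without the 2 farthest arrays. ACTG2 (r = 0.60, rho = 0.62, adjusted permutation p = 0.0127) and MYL9 (r = 0.58, rho = 0.54, adjusted permutation p = 0.0132) followed the fibroblast list over all arrays but not within groups (r = 0.38 and 0.14, adjusted p = 0.534 and 0.772). COL3A1 had r = 0.46 with that list (rho = 0.50, adjusted permutation p = 0.0641) and -0.11 within groups.

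With the smooth muscle list no gene passed: r was 0.28 for MYL9, 0.15 for ACTG2, 0.20 for DCN and 0.01 for COL3A1 (adjusted permutation p = 0.271 to 0.969). The levels of ACTG2 and MYL9, smooth muscle genes by their known role, thus passed no test against the other markers of that tissue. The second ACTG2 probe set was not tested against the list. Its r with the 15 smooth muscle genes had a median of 0.27, ran from -0.36 to 0.69 and was over 0.5 for 3: ACTA2, the actin of vascular smooth muscle (0.69), TAGLN, an actin-binding protein of the same cells (0.66), and CALD1 (0.55). Whether this probe set also reads the transcript of ACTA2, a related actin, was not tested. The first ACTG2 probe set correlated at over 0.5 with 1 of the 15 smooth muscle genes, CALD1, which encodes caldesmon.

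The 3'/5' ratio correlated with DCN (r = -0.48, rho = -0.48, adjusted permutation p = 0.0420) and at r = -0.46 with COL3A1 (adjusted permutation p = 0.0592), -0.30 with ACTG2 and -0.24 with MYL9. The median log2 intensity of the array correlated with DCN (0.57), COL3A1 (0.54) and ACTG2 (0.51), at adjusted permutation p of 0.0132, 0.0190 and 0.0290. In all 7 of the 48 pairs passed over all arrays and 1, DCN with the fibroblast list, within groups. Lists for basement membrane, endothelium, choroid plexus, red cells, macrophages, neurons, astrocytes and oligodendrocytes gave none that passed, with the closest DCN and oligodendrocytes (r = -0.44, rho = -0.36, adjusted permutation p = 0.0729).

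The genes with the highest r to each of the 4, of 5769 genes scanned, differed from gene to gene. For DCN they were MGP (0.84), which encodes a matrix protein that holds back calcification, AEBP1 (0.82), a collagen-binding protein, PCCA (0.79), a mitochondrial carboxylase subunit, DSP (0.78), desmoplakin of cell junctions, and IGF2 (0.78), a growth factor. With the group means taken out these were 0.71 to 0.83. MGP read 855, 794 and 649.7 in MB30, against 559.7, 245 and 245 in SAL30, and was low where DCN was low, as on CA0 replicate 2 (147 for MGP, 88.2 for DCN). For COL3A1 they were SYT1 (0.77), the calcium sensor of synaptic vesicles, HNRNPH2 (0.77), an RNA-binding protein, ATP5L (0.77), a subunit of ATP synthase, WASF1 (0.76), an actin regulator of neurons, and ANKRD50 (0.76), and 0 of the 5 was on the fibroblast list. That list had 15 tested genes among the 5769 scanned, so this 0 says little. The 5 for COL3A1 were between 0.57 and 1.22 higher in the MB than in the SAL arm (log2). On the fibroblast list COL3A1 had r over 0.5 with 3 of 17 genes (ASPN 0.67, CDH11 0.60, IGF2 0.60), and DCN with 6 of 17. The r of COL3A1 with the 17 ran from -0.35 to 0.67, with a median of 0.27, or -0.09 within groups. For DCN it ran from 0.03 to 0.84, with a median of 0.35, or 0.36 within groups. Of all other probe sets tested, the highest 5% had r over 0.55 with COL3A1 and over 0.47 with DCN. For MYL9 the 5 were GP9 (0.74), a glycoprotein of platelets, CCDC51 (0.71), BCL2L1 (0.69), which restrains apoptosis, C15H2orf54 (0.67) and ENG (0.67), endoglin of endothelium. For ACTG2 they were LOC100512195 (0.72), SERP1 (0.71), a stress protein of the endoplasmic reticulum, CCDC34 (0.70), CMTR2 (0.70) and NPM3 (0.69), and 0 of the 5 was on the smooth muscle list. The smooth muscle list had 14 tested genes among those scanned, so this 0 says little as well. With the group means taken out, r was 0.52 to 0.67 for the 5 of COL3A1. It was 0.32 to 0.72 for those of MYL9 (0.39 for ENG) and 0.38 to 0.72 for those of ACTG2.

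**Figure D5:**
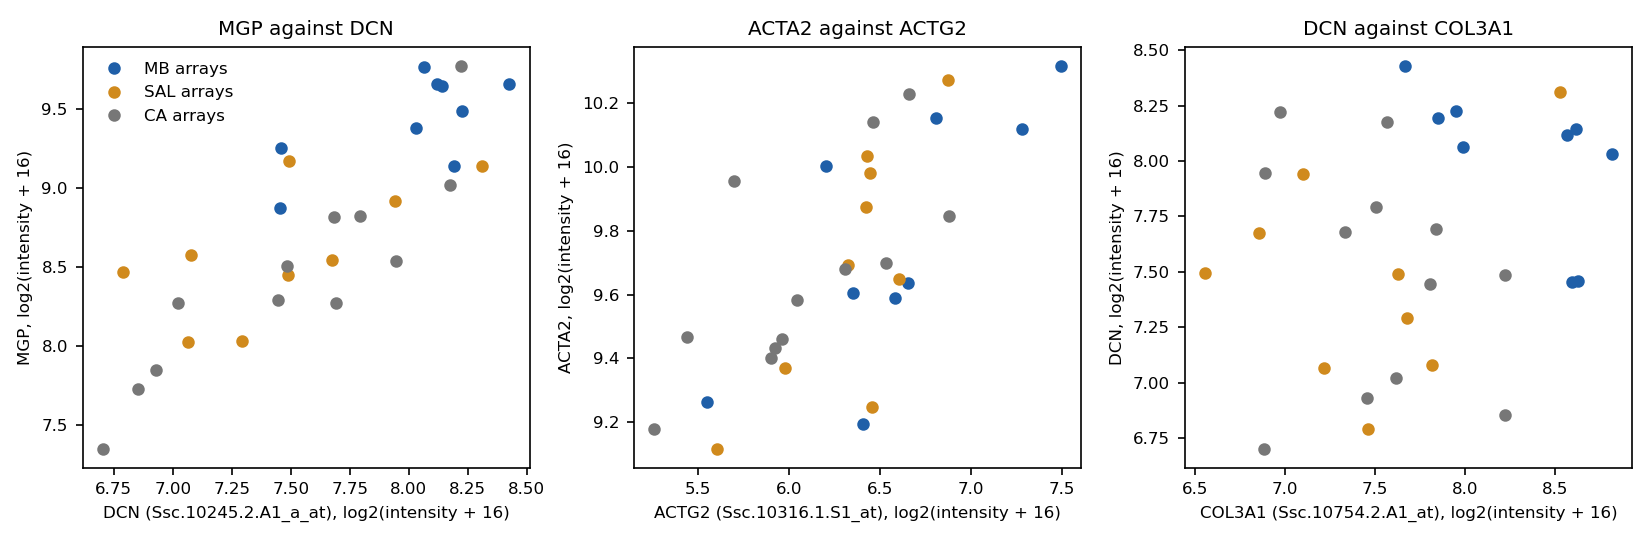
Single arrays (points, blue MB, orange SAL, grey CA) in log2(intensity + 16) on both axes: MGP against DCN, ACTA2 against the second ACTG2 probe set, and DCN against COL3A1. The first panel has r = 0.84, the second r = 0.69 and the third r = 0.22.

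The other genes of these tissues were counted from the same lists. In the MB against SAL mean over times, 6 of 15 tested fibroblast and matrix genes were called higher and 0 lower, where 13.8% of all probe sets were called higher and 11.4% lower, with a median log2 difference of 0.38 against 0.02 over all probe sets. They were IGF2 (0.78 ± 0.14, SE, limma adjusted p = 0.000284), MGP (0.84 ± 0.21, adjusted p = 0.00521), FN1 (fibronectin, 0.62 ± 0.17), FBLN1 (fibulin 1, 0.47 ± 0.11), CDH11 (a cadherin of mesenchymal cells, 0.50 ± 0.14) and ASPN (asporin, kin to decorin, 0.38 ± 0.13). COL1A2 (0.19 ± 0.17), the type I collagen chain measured, and LUM (lumican, 0.21 ± 0.12) did not pass, nor did THBS2 (thrombospondin 2, -0.22 ± 0.17). Of 14 tested smooth muscle and pericyte genes 0 were called higher and 1, MCAM (an adhesion molecule, -0.55 ± 0.14), was called lower, with a median of -0.02. Their brightest members MYL6 (-0.18 ± 0.07), DES (0.05 ± 0.17) and TPM1 (0.09 ± 0.08) did not pass, and ACTA2 (0.07 ± 0.13) and TAGLN (-0.07 ± 0.12) did not either. The summed intensity of the fibroblast list was 4350 to 5718 on MB arrays, 2971 to 4469.6 on SAL arrays and 2494 to 4379.6 on CA arrays, and that of the smooth muscle list was 9674 to 12377 on MB arrays, 10154 to 12217 on SAL arrays and 9773 to 11844 on CA arrays.

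In resuscitated groups against the others, where 10.4% of all probe sets were called higher and 7.25% lower and the MB arrays are again on the resuscitated side, 6 of 15 fibroblast genes were called higher (COL5A1, COL6A2, FBLN1, FN1, MGP and IGF2), and 0 of 14 smooth muscle genes called in either direction. In the MB against SAL mean over times, beside the 13.8% of all probe sets called higher and 11.4% called lower, 3 of 15 endothelial genes were called higher (CDH5, ENG and ERG), 2 of 7 basement membrane genes lower (LAMB2 and LAMC1) and 3 of 10 oligodendrocyte genes lower (OPALIN, MAL and OLIG2). Of 8 astrocyte genes 2 were called higher and 1 lower, of 8 neuronal genes 1 higher (SYT1), and of 9 macrophage genes 1 lower (TYROBP). The summed intensity of the 4 choroid plexus genes measured was 13369.9 on CA20 replicate 2 and at most 660.4 on the other arrays, and that array had the highest DCN of the CA groups (282). DCN had r = 0.39 with the choroid plexus list over all arrays (adjusted permutation p = 0.0981). Within groups r was 0.54 (within-group permutation p = 0.0228, adjusted p = 0.534). With only the 2 choroid plexus genes above the filter, r was 0.33 over all arrays. Within groups it was then 0.32 (within-group permutation p = 0.180, adjusted p = 0.481). TTR, with a mean intensity of 422 but a mean log2 value of 5.25, and KCNE2 lay under the filter and were not tested. None of 4 red cell and 2 choroid plexus genes tested was called. The part of these cell types in the levels of the 4 genes was not tested.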

How the data were processed

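The 30 porcine arrays have 1 deposited intensity per probe set on a linear scale. GCOS, Affymetrix's operating software, is named per the submitters' processing notes, and its version, the signal algorithm and any scaling were not given in the sources used here. Of 24123 probe sets, 124 controls were left out. The log2 scale was applied here to the deposited values, as log2(intensity + 16), and 16799 probe sets with a mean at or above the 30th percentile were tested. No sequence or position was used here.

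Tests of groups ran in limma 3.58.1 under R 4.3.3, as 1 fit with 10 group means (20 residual degrees of freedom), an intensity trend and Benjamini-Hochberg adjustment within each comparison at 0.05. Correlations and their 100000 permutations were computed with numpy 2.4.6, and ranks with SciPy 1.17.1. Permutations ran within groups where group means were taken out. The pipeline was tested on simulated data. The members, gene lists and comparisons were chosen with earlier results of these data known. Named were all probe sets of the 4 genes, for each gene the 5 genes with the highest r to its main probe set, and members of the marker lists that were called, with the 3 brightest members of the smooth muscle and fibroblast lists. ACTA2, TAGLN, CALD1, COL1A2, LUM and THBS2 fall outside this rule and were chosen after their values were seen. Nothing says that the samples of a group were processed independently beyond the label of biological replicates.

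Alternatives were other pseudocounts, filters and scalings, array weights, no intensity trend, only the compared groups in the fit, a replicate block and each array left out. The 3'/5' ratio as a covariate, the fit without 4 arrays and the other ACTG2 probe set were chosen after seeing the data. Replicate numbers did not pair the arrays.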

Additional observations from a re-analysis of the deposited data

How the results depend on the processing

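No probe set of the 4 genes passed in the CA and SAL comparisons with CA0, in MB60 against SAL60 or in the interaction under any alternative run, and all counts below are out of 5. At MB30 against SAL30 the count of 2 became 0 with a pseudocount of 1, no filter, median centring, only the groups compared or the 3'/5' ratio as a covariate. It became 1 with the 50th percentile filter, quantile normalization, no trend, array weights, the replicate block or without the 4 high-ratio arrays, and ran from 0 to 2 as single arrays were left out. It stayed at 2 with a pseudocount of 64 and, of the single arrays, without CA0 replicates 2 or 3, SAL180 replicates 2 or 3, MB60 replicate 1 or MB180 replicate 1. At MB180 against SAL180 array weights raised 0 to 2, and leaving out arrays gave 0 to 0. For the mean of MB minus SAL the count of 4 became 2 with quantile normalization, median centring or the 3'/5' covariate, stayed at 4 with the replicate block, and ran from 2 to 4 as arrays were left out. It was 2 without MB30 replicates 1 or 2, MB60 replicate 2, MB180 replicate 3, SAL30 replicate 3, SAL60 replicate 3 or SAL180 replicate 2, 3 without 14 others and 4 without 9. For resuscitated against not, 1 became 0 with quantile normalization, median centring, the replicate block or without the 4 high-ratio arrays, and ran from 0 to 2. It was 0 without CA0 replicates 2 or 3, CA5 1 or 3, CA20 2, CA30 2, SAL30 1 or 2, SAL60 1 or 2, SAL180 1, MB30 2, MB60 2 or MB180 2 or 3, and 2 without SAL30 replicate 3. For any difference among groups, 1 became 0 with a pseudocount of 1, no filter, the 50th percentile filter, quantile normalization, median centring, the 3'/5' covariate or without the 4 high-ratio arrays. It became 2 with a pseudocount of 64, no trend or array weights, and ran from 0 to 2 (0 without CA0 replicates 1 or 2, CA5 1, CA20 2 or 3, CA30 2 or 3, SAL30 2, SAL60 3, SAL180 1, MB30 1 or 2 or MB180 1 or 2, and 2 without CA0 3, SAL30 1 or 3 or SAL180 2). Of the 6 gene pairs, 2 correlations passed over all arrays. With a pseudocount of 64 it was 1, and with quantile normalization, median centring, the 2 farthest arrays left out, deviations from group means or the other ACTG2 probe set it was 0. As arrays were left out it ran from 0 (CA0 replicate 2) to 3 (CA5 replicate 2), with 1 without 18 of the arrays. The r of ACTG2 and COL3A1 turned to -0.12 as deviations from group means. Of the 48 pairs with lists, 7 became 1 as deviations from group means. The causes were not tested. Over all probe sets, calls in the mean of MB minus SAL were 2313 higher and 1918 lower, against 1924 and 2402 after quantile normalization and 1502 and 3350 after median centring. In MB30 against SAL30 they were 403 and 284, against 381 and 414, and 270 and 530. In resuscitated against not they were 1746 and 1218, against 1143 and 1379, and 1102 and 2955. Replicate numbers did not pair the arrays, since the mean correlation of same-numbered deviations was -0.004 and 28 of 135 pairs exceeded 0.1. The 3 arrays per group and the dim signals of ACTG2 limit all of this.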
